A study of Mus musculus with 20 samples.

Results

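The subject is the difference between female and male rats in how the lung transcriptome responded to bleomycin, measured gene by gene as the sex by treatment interaction. For each gene the female response, bleomycin minus sham, was set against the male response, and a positive value means that the female response was the higher. Genes were taken from all chromosomes other than X, Y and the mitochondrial genome if they reached an FPKM of at least 0.5 in at least 5 of the 20 libraries. FPKM is a read density scaled to transcript length and library depth. This left 15320 of the 23799 genes of the deposited table, while 15875 passed the same filter on any chromosome.

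Lungs of 20 Sprague Dawley rats, an outbred stock, were sequenced with 1 poly-A library per animal, in 4 groups of 5, males and females that were each either sham or bleomycin animals. The labels place all of them in a body weight matched cohort. The series title names the sex difference after bleomycin-induced acute lung injury as its question. No transgene or mutant allele is involved, and the labels do not give the bleomycin dose, its route, the time to tissue collection, the age of the animals or the stage of the female cycle.

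Bleomycin is a glycopeptide that binds iron and breaks DNA strands, and in the lung it is used to injure alveolar epithelium and capillary endothelium. The injury is followed by an influx of macrophages, proliferation of surviving cells and deposition of collagen by fibroblasts. An interaction compares 2 responses, so a gene can enter it because the sexes differed before injury, because they differed after it, or both. The level in all 4 groups is therefore given for the genes described with values below. The female against male difference among sham animals and among bleomycin animals is added for some genes and lists only.

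The deposited totals ran from 68.6 to 87.5 M counts per library (M for mega). Summed FPKM of 14 alveolar type 2 cell genes, which include the surfactant genes that define lung, lay between 4038 and 19313 in every library. The Y-linked gene Kdm5d was at 3.78 FPKM or more in all 10 libraries labelled male and at 0.0552 or less in all 10 labelled female. The groups also differed in ways other than sex and treatment. Mitochondrial transcripts took 4.42 to 7.63% of counts in sham males, 5.43 to 9.56% in bleomycin males, 5.60 to 7.41% in sham females and 4.43 to 5.61% in bleomycin females. Long transcripts were low against short ones in bleomycin males, where the median log2 deviation of the longest minus the shortest of 5 equal length bins of genes was −0.92 to −0.15, against 0.13 to 0.25 in sham males, 0.04 to 0.17 in sham females and −0.15 to 0.09 in bleomycin females. Transcripts of neighbouring organs (an FPKM of 50 or more for the liver gene Alb, the skeletal muscle gene Acta1, the atrial gene Myl7 or the fat gene Adipoq) were found in sham males 3 and 5, bleomycin males 2 and 5 and sham female 1. Bleomycin male 4 lay apart from the other bleomycin males, near the females, in many of the genes given below. Counts of passing genes in the lists below are also given without that library and without the 5 libraries with organ transcripts. Each list count is to be read against the count over all 15320 genes in the same fit. That count was 865 with every library, 2871 without bleomycin male 4 and 26 without the libraries with organ transcripts. With the length trend removed it was 553. A list count that rises without bleomycin male 4 is therefore not by itself a result about that list.

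**Figure D1:**
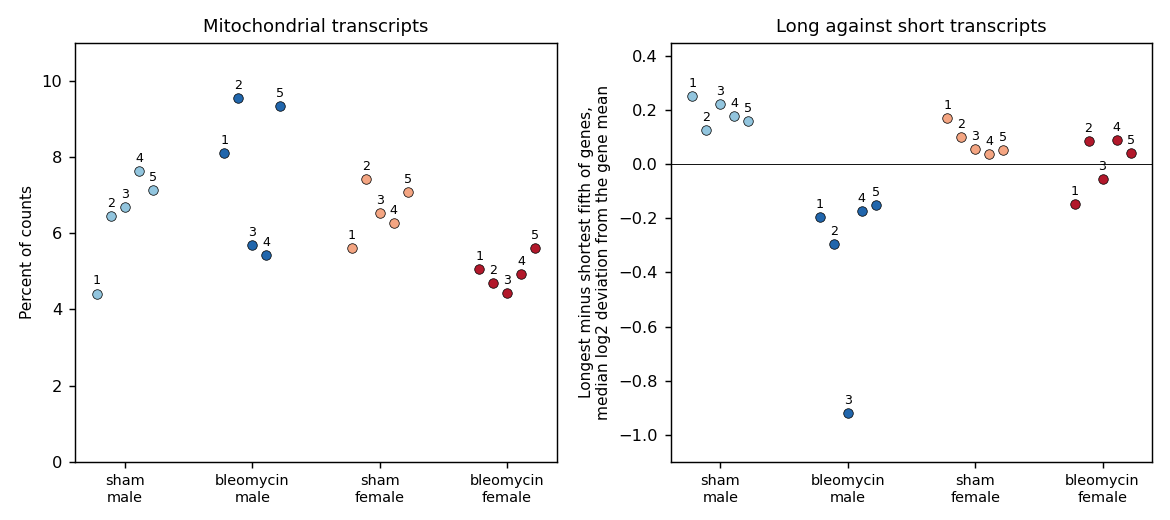
The left panel plots the percent of counts from mitochondrial transcripts and the right panel the median log2 deviation of the longest minus the shortest of 5 equal length bins of genes, 1 point per library with its replicate number. Bleomycin males 1, 2 and 5 have the highest mitochondrial percentages, bleomycin females lie between 4.43 and 5.61%, and all 5 bleomycin males are below 0 in the right panel, with replicate 3 at −0.92.

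By the medians of their lists, matrix, cell division, endothelial and alveolar type 1 cell genes had the higher response in females. Macrophage, complement, chemokine and ribosomal protein genes had the higher response in males by the same measure. In edgeR's quasi-likelihood test with Benjamini-Hochberg adjustment over all 15875 genes past the filter, 865 of the 15320 genes (5.65%) had an adjusted p under 0.05, 549 of them (3.58%) with the female response higher and 316 (2.06%) with it lower. At a difference of 2-fold or more, 398 genes (2.6%) passed, 286 (1.87%) higher and 112 (0.731%) lower in females. The median difference over all 15320 genes was −0.02 on the log2 scale. By their fitted values, 252 of the 549 genes had a response above 0 in females and below 0 in males, 113 were above 0 in both and 184 were below 0 in both. Of the 316 genes, 203 had a response below 0 in females and above 0 in males, 109 were above 0 in both and 4 below 0 in both. The female against male difference was larger among bleomycin than among sham animals in 448 of the 549 and in 274 of the 316, and in 10507 (68.6%) of all genes tested.

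**Figure D2:**
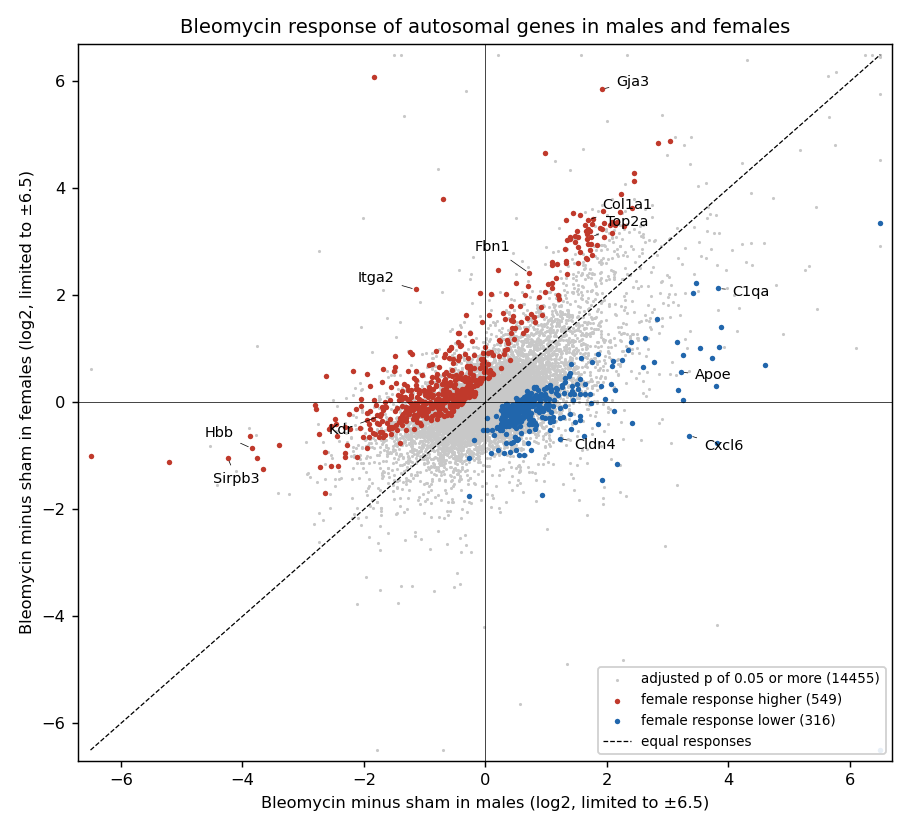
Each point is an autosomal gene, with the log2 bleomycin response in males on the x axis and in females on the y axis, both limited to 6.5 in either direction. The 549 genes in red lie above the line of equal responses and the 316 in blue below it, with C1qa, Apoe and Cxcl6 far to the right and Fbn1, Itga2 and Gja3 far above the line.

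The number of genes that passed depended on the settings. It was 2871 without bleomycin male 4, 26 without the 5 libraries with organ transcripts, which left 3, 3, 4 and 5 libraries per group, and 553 (354 higher, 199 lower) once the trend with transcript length was removed within each library. With the mitochondrial percent as a covariate in edgeR no gene passed, and 2909 had an unadjusted p under 0.05 against 4042 without the covariate. Upper quartile scaling gave 450 higher and 452 lower, and library totals gave 469 higher and 387 lower, in place of 549 and 316. Leaving out 1 library gave 496 genes without sham male 1, 511 without sham male 2, 325 without sham male 4, 402 without sham male 5 and 335 without bleomycin male 2. It gave 514, 336, 404, 387 and 353 genes without sham females 1 to 5, and 303, 357 and 325 without bleomycin females 2, 3 and 4. In all these fits the direction of all 865 genes remained, and limma on log2(FPKM + 1) turned 1 of them. The 865 were chosen by the fit with every library, and these fits reuse most or all of the same libraries. A kept direction therefore follows largely from that choice.

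**Figure D3:**
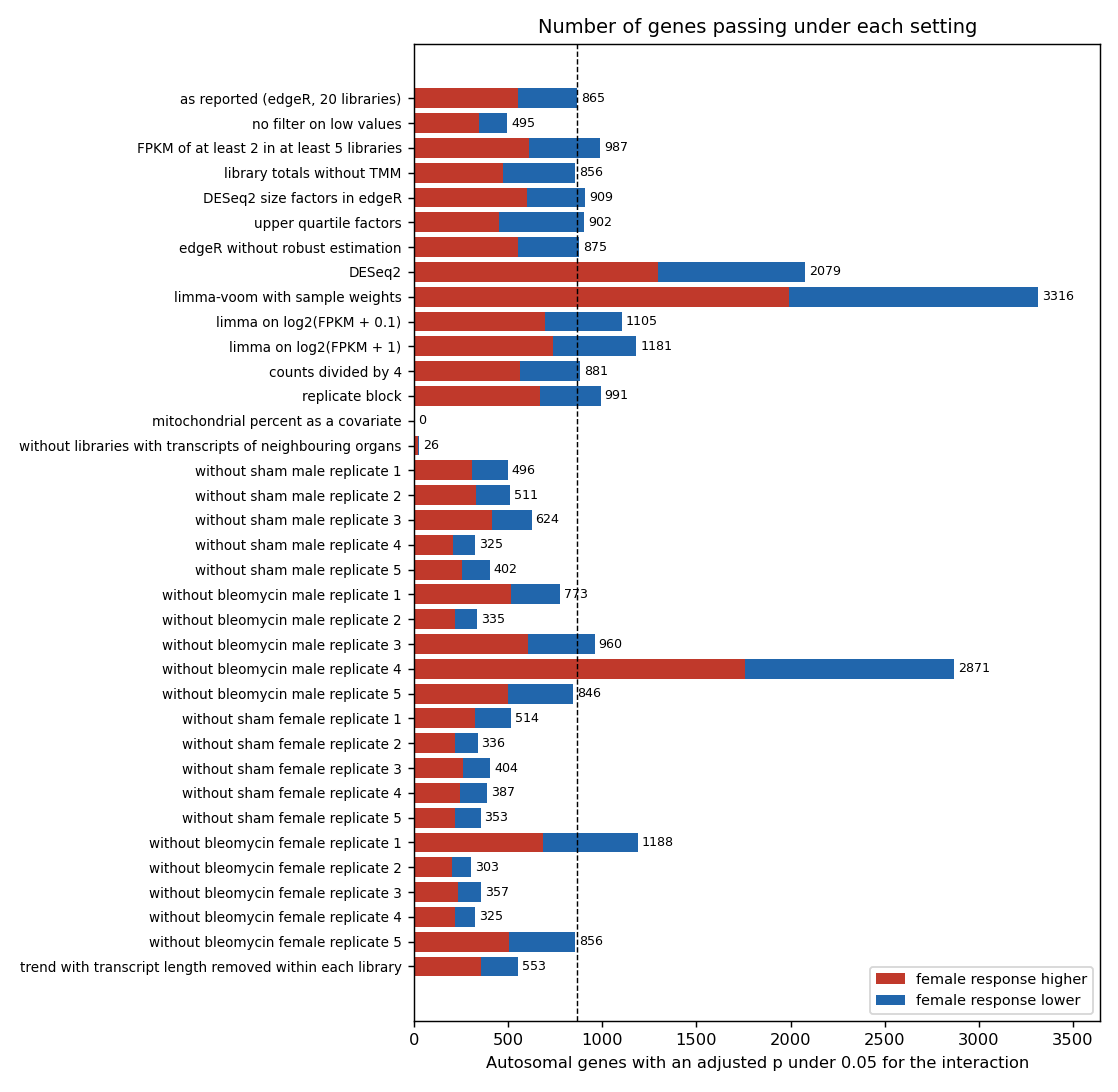
Bars give the number of autosomal genes with an adjusted p under 0.05 for the interaction under each setting, split by direction, and the dashed line marks the 865 genes reported. The count runs from 0 with the mitochondrial percent as a covariate to 3316 with limma-voom and sample weights.

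Genes for the fibrous matrix had the higher response in females, which started from a lower sham level. Of 31 tested genes for fibrillar matrix and fibroblast products, 11 passed with the female response higher and 0 lower, and the median log2 difference was 0.87, from a median response of 1.10 in males and 2.25 in females. The median female against male difference was −0.85 among sham animals and 0.03 among bleomycin animals. In bulk tissue RNA, fewer cells of a type cannot be told apart from less RNA per cell, here and in all later groups. Fbn1, which encodes fibrillin-1 of the elastic microfibrils, stood at 18.8, 14.5, 11.1, 15.0 and 19.2 FPKM in sham males 1 to 5 and at 28.03, 20.9, 21.9, 35.3 and 25.7 FPKM in bleomycin males 1 to 5. Sham females had 8.07, 5.71, 7.00, 5.27 and 5.25 FPKM and bleomycin females 35.0, 39.1, 34.5, 32.4 and 28.9 FPKM. All 5 sham females were below all 5 sham males, and of the bleomycin males only replicate 4, at 35.3, reached into the range of the bleomycin females, 28.9 to 39.1. Fbn1 (gene ENSRNOG00000007302, chromosome 3, 112554925 to 112750889, minus strand), as the table places it, differed in response by 1.70 ± 0.238 (adjusted p = 0.00446) on the log2 scale. Its female against male difference was −1.33 ± 0.170 (adjusted p = 0.000459) in sham and 0.37 ± 0.167 (adjusted p = 0.117) in bleomycin animals.

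Col1a1, the alpha 1 chain of type I collagen, stood at 117, 151, 75.6, 144 and 144 FPKM in sham males 1 to 5 and at 332, 371, 552, 452 and 356 FPKM in bleomycin males 1 to 5. Sham females had 31.7, 29.6, 40.8, 26.7 and 26.1 FPKM and bleomycin females 409, 329, 386, 306 and 240.1 FPKM. The sham groups did not overlap, with females the lower, and the bleomycin groups overlapped. Col1a1 (gene ENSRNOG00000003897, chromosome 10, 79883622 to 79900624, plus strand) differed in response by 1.72 ± 0.303 (adjusted p = 0.0138), with a sham difference of −2.02 ± 0.221 (adjusted p = 5.24e-05) and a bleomycin difference of −0.31 ± 0.213 (adjusted p = 0.308). The collagen cross-linking enzyme gene Loxl2 averaged 10.3 ± 1.67 in sham and 22.5 ± 4.64 in bleomycin males, and 4.41 ± 0.956 in sham and 26.7 ± 1.81 in bleomycin females FPKM (SD, n = 5 in every group), and its responses differed by 1.47 ± 0.231 (adjusted p = 0.0128). Fibronectin, Fn1, averaged 78.7 ± 12.98 in sham and 339 ± 57.8 in bleomycin males, and 35.8 ± 5.05 in sham and 325 ± 31.2 in bleomycin females. Fn1 differed in response by 1.07 ± 0.222 (adjusted p = 0.0195). The large proteoglycan gene Vcan averaged 1.70 ± 0.229 in sham and 5.59 ± 0.868 in bleomycin males, and 0.717 ± 0.232 in sham and 5.69 ± 0.680 in bleomycin females. Vcan differed in response by 1.27 ± 0.247 (adjusted p = 0.0182). In these 3 genes too sham females were low, with adjusted p = 0.000727, 0.00118 and 0.00146 for the sham difference, and none of the 3 had an adjusted p under 0.05 between bleomycin females and bleomycin males (0.295, 0.805 and 0.921). Cemip, whose product takes part in breaking down hyaluronan, averaged 0.645 ± 0.175 in sham and 4.73 ± 1.71 in bleomycin males, and 0.320 ± 0.0956 in sham and 9.46 ± 1.34 in bleomycin females. Cemip differed in response by 2.01 ± 0.351 (adjusted p = 0.0138). Unlike the matrix genes above, Cemip was higher in bleomycin females than in bleomycin males, by 1.01 ± 0.244 (adjusted p = 0.00976). The matrix list had 17 genes passing without bleomycin male 4, 2 without the libraries with organ transcripts and 5 with the length trend removed, with medians of 1.03, 0.70 and 0.72 and none lower. Without the libraries with organ transcripts Fbn1 and Loxl2 passed (adjusted p = 0.0282 and 0.0359). Col1a1, Fn1 and Vcan did not (adjusted p = 0.0641, 0.0691 and 0.092). With the length trend removed Fbn1, Col1a1 and Loxl2 passed, and Fn1 and Vcan did not (adjusted p = 0.0786 and 0.0621).

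Basement membrane and growth factor pathway genes followed, with smaller shares. Of 18 basement membrane genes 3 passed, all higher in the female response, with a median of 0.57. The count was 10 without bleomycin male 4, 1 without the libraries with organ transcripts, at a median of 0.36, and 2 with the length trend removed. The nidogen gene Nid1, which links laminin to collagen IV, averaged 20.5 ± 3.72 in sham and 30.6 ± 11.2 in bleomycin males, and 9.76 ± 1.39 in sham and 34.6 ± 1.40 in bleomycin females FPKM. Nid1 differed in response by 1.23 ± 0.276 (adjusted p = 0.0218). Col15a1, a collagen at the border of basement membrane and stroma, averaged 23.5 ± 6.96 in sham and 25.4 ± 2.80 in bleomycin males, and 8.90 ± 2.76 in sham and 36.8 ± 11.01 in bleomycin females. Col15a1 differed in response by 1.93 ± 0.340 (adjusted p = 0.0138), with a male response of 0.08 ± 0.238 (adjusted p = 0.803) and a female response of 2.02 ± 0.247 (adjusted p = 6.89e-06). Bleomycin female 5, at 54.8, was the highest Col15a1 library, and sham females lay below sham males, with sham male 3, at 12.4, and sham female 2, at 12.2, close together. Of 12 smooth muscle and myofibroblast contraction genes 0 passed, with median responses of 1.22 in males and 1.21 in females. The list of 17 matrix proteases and inhibitors had 0 passing and a median of 0.04.

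In the TGF-beta, BMP and activin list 4 of 30 genes passed with the female response higher and 1 lower, with a median of 0.43. The gene that passed lower was Tgfbi, at −0.99 (adjusted p = 0.045), and in all 22 were above 0 and 8 below. The TGF-beta, BMP and activin pathways carry signals from secreted ligands through paired receptors to SMAD proteins. Loss of the BMP receptor BMPR2 is known from hereditary pulmonary hypertension. Bmpr2, the type II BMP receptor of lung endothelium, stood at 28.1, 23.2, 23.3, 20.5 and 21.5 FPKM in sham males 1 to 5 and at 7.66, 6.01, 3.00, 9.64 and 8.29 FPKM in bleomycin males 1 to 5. Sham females had 25.1, 25.7, 21.6, 21.4 and 21.3 FPKM and bleomycin females 10.4, 20.6, 14.6, 23.1 and 21.0 FPKM. All 5 bleomycin males lay below all 5 bleomycin females, and the sham groups overlapped. Bmpr2 (gene ENSRNOG00000022196, chromosome 9, 61190566 to 61301809, plus strand) differed in response by 1.40 ± 0.317 (adjusted p = 0.0223), with a male response of −1.79 ± 0.230 (adjusted p = 1.15e-05) and a female response of −0.39 ± 0.223 (adjusted p = 0.228). The ligand gene Bmp6 averaged 50.8 ± 7.61 in sham and 19.9 ± 6.15 in bleomycin males, and 48.6 ± 4.85 in sham and 41.7 ± 7.99 in bleomycin females. Bmp6 differed in response by 1.12 ± 0.269 (adjusted p = 0.0262). The co-receptor endoglin, Eng, averaged 200.1 ± 14.4 in sham and 114 ± 47.2 in bleomycin males, and 186 ± 8.85 in sham and 264 ± 44.7 in bleomycin females. Eng differed in response by 1.30 ± 0.309 (adjusted p = 0.0258), with bleomycin female 1, at 187.9, level with bleomycin male 4, at 188. Ltbp2, a microfibril protein of the latent TGF-beta binding family, averaged 28.9 ± 6.49 in sham and 72.3 ± 34.8 in bleomycin males, and 14.2 ± 1.58 in sham and 106 ± 20.1 in bleomycin females. Ltbp2 differed in response by 1.57 ± 0.371 (adjusted p = 0.0258). Unlike the receptor genes it rose in both sexes, by 1.31 ± 0.265 (adjusted p = 0.000739) in males and 2.87 ± 0.280 (adjusted p = 3.79e-07) in females. Without bleomycin male 4 the list had 14 genes higher and 2 lower, without the libraries with organ transcripts it had 0, and with the length trend removed 4 higher and 0 lower.

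Cell division genes had the higher response in females, and the 4 named below rose in both sexes. Of 29 tested cell cycle and mitosis genes 13 passed, all with the female response higher, and 28 had a difference above 0. The median response was 1.65 in males and 2.81 in females, and the median difference 0.87. The list's median female against male difference was −0.37 among sham and 0.49 among bleomycin animals. Top2a, the topoisomerase that untangles replicated chromosomes, stood at 4.39, 4.04, 2.68, 4.03 and 3.69 FPKM in sham males 1 to 5 and at 15.3, 8.62, 10.8, 18.7 and 10.3 FPKM in bleomycin males 1 to 5. Sham females had 3.13, 2.20, 2.93, 2.28 and 1.65 FPKM and bleomycin females 18.7, 22.9, 23.3, 16.7 and 24.4 FPKM. The sham groups overlapped at low levels, and among bleomycin males only replicate 4, at 18.7, reached into the bleomycin female range of 16.7 to 24.4. Top2a (gene ENSRNOG00000053047, chromosome 10, 83945735 to 83976874, minus strand) differed in response by 1.35 ± 0.287 (adjusted p = 0.0199), rising by 1.74 ± 0.208 (adjusted p = 5.66e-06) in males and 3.09 ± 0.219 (adjusted p = 1.6e-08) in females. The spindle motor gene Kif11 averaged 1.26 ± 0.372 in sham and 3.95 ± 1.46 in bleomycin males, and 0.767 ± 0.217 in sham and 7.80 ± 1.13 in bleomycin females. Kif11 differed in response by 1.69 ± 0.359 (adjusted p = 0.0199). The spindle protein gene Nusap1 averaged 2.38 ± 0.659 in sham and 7.60 ± 2.17 in bleomycin males, and 1.505 ± 0.526 in sham and 14.2 ± 2.20 in bleomycin females. Nusap1 differed in response by 1.56 ± 0.340 (adjusted p = 0.0212). The replication licensing gene Mcm2 averaged 7.00 ± 0.844 in sham and 13.3 ± 2.37 in bleomycin males, and 5.72 ± 0.614 in sham and 20.2 ± 2.47 in bleomycin females. Mcm2 differed in response by 0.87 ± 0.184 (adjusted p = 0.0199). With bleomycin male 4 left out, the list had 22 genes passing, without the libraries with organ transcripts 1, and with the length trend removed 11.

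Targets of p53, the factor that DNA breaks activate, did not follow the division genes. Of 20 tested 1 passed higher and 2 lower, with a median of −0.34. These counts became 1 and 3 without bleomycin male 4, a fit in which 1760 and 1111 of all 15320 genes passed. They became 0 and 0 without the libraries with organ transcripts, where 19 and 7 of all genes passed. Bax, which promotes cell death at mitochondria, stood at 10.2, 11.7, 6.72, 7.35 and 8.49 FPKM in sham males 1 to 5 and at 25.0, 26.5, 23.3, 19.4 and 18.1 FPKM in bleomycin males 1 to 5. Sham females had 10.3, 10.0, 11.3, 8.86 and 9.66 FPKM and bleomycin females 15.8, 11.1, 16.4, 11.7 and 15.3 FPKM. Every bleomycin male was above every bleomycin female, and the sham groups overlapped. Bax rose by 1.31 ± 0.147 (adjusted p = 3.35e-06) in males and 0.46 ± 0.145 (adjusted p = 0.0288) in females, and the responses differed by −0.85 ± 0.204 (adjusted p = 0.026). The exonuclease gene Aen averaged 7.46 ± 1.13 in sham and 15.6 ± 2.10 in bleomycin males, and 7.69 ± 0.785 in sham and 9.58 ± 1.35 in bleomycin females. Aen differed in response by −0.73 ± 0.180 (adjusted p = 0.0292). The death receptor gene Tnfrsf10b went the other way, averaging 1.96 ± 0.2996 in sham and 2.54 ± 0.851 in bleomycin males, and 0.969 ± 0.439 in sham and 4.03 ± 0.503 in bleomycin females, and differed by 1.69 ± 0.410 (adjusted p = 0.0275). Blmh, the hydrolase that inactivates bleomycin, averaged 17.2 ± 1.38 in sham and 21.3 ± 3.85 in bleomycin males, and 16.7 ± 0.627 in sham and 22.7 ± 1.30 in bleomycin females, and its difference of 0.13 ± 0.171 (adjusted p = 0.667) did not pass.

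Endothelial genes were lower in bleomycin males than in bleomycin females, with a median female against male difference of −0.10 among sham and 0.71 among bleomycin animals. Of 27 endothelial genes 10 passed, all with the female response higher, and 24 were above 0. The median response was −0.68 in males and 0.21 in females, and the median difference 0.80. Kdr, the main VEGF receptor of capillaries, stood at 75.5, 56.7, 37.2, 50.6 and 40.2 FPKM in sham males 1 to 5 and at 20.5, 11.8, 12.4, 23.9 and 9.85 FPKM in bleomycin males 1 to 5. Sham females had 59.1, 59.1, 61.7, 57.0 and 47.5 FPKM and bleomycin females 33.2, 51.0, 48.9, 48.3 and 62.0 FPKM. All 5 bleomycin males, at 23.9 or less, were below every library of the other groups, and the 2 sham groups overlapped. Kdr (gene ENSRNOG00000046829, chromosome 14, 32217871 to 32261018, plus strand) differed in response by 1.48 ± 0.323 (adjusted p = 0.0208), falling by 1.74 ± 0.234 on the log2 scale in males (adjusted p = 1.74e-05) with a female response of −0.26 ± 0.227 (adjusted p = 0.456). The female against male difference was 0.15 ± 0.227 (adjusted p = 0.888) in sham and 1.63 ± 0.233 (adjusted p = 0.00103) in bleomycin animals.

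The junctional cadherin gene Cdh5 averaged 169.7 ± 24.1 in sham and 70.5 ± 33.3 in bleomycin males, and 123 ± 7.75 in sham and 131 ± 17.2 in bleomycin females FPKM. Cdh5 differed in response by 1.35 ± 0.314 (adjusted p = 0.0244), with bleomycin male 4, at 124, within the bleomycin female range. The clotting factor carrier Vwf averaged 79.1 ± 6.08 in sham and 50.03 ± 15.3 in bleomycin males, and 55.8 ± 2.09 in sham and 82.4 ± 10.1 in bleomycin females. Vwf differed in response by 1.21 ± 0.251 (adjusted p = 0.0195). Its male response was −0.68 ± 0.178 (adjusted p = 0.00512) and its female response 0.53 ± 0.177 (adjusted p = 0.0387), so that it moved in opposite directions in the sexes. Flt4, a VEGF receptor of lymphatic and activated vessels, averaged 4.01 ± 0.338 in sham and 4.24 ± 0.824 in bleomycin males, and 3.38 ± 0.285 in sham and 6.55 ± 0.637 in bleomycin females. Flt4 differed in response by 0.88 ± 0.162 (adjusted p = 0.0147), with a male response of 0.04 ± 0.114 (adjusted p = 0.803) and a female response of 0.92 ± 0.115 (adjusted p = 8.33e-06). In the lymphatic list 2 of 5 passed higher and the median was −0.34, so the passing genes and the median had opposite signs. That list had 2 genes higher and 1 lower without bleomycin male 4 and 0 passing without the libraries with organ transcripts. When bleomycin male 4 was left out the endothelial list had 18 genes passing, without the libraries with organ transcripts 0, and with the length trend removed 8.

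Rgs5, a regulator of G protein signalling that marks pericytes, stood at 27.9, 26.6, 21.1, 28.6 and 30.0 FPKM in sham males 1 to 5 and at 14.2, 14.8, 8.09, 12.2 and 20.1 FPKM in bleomycin males 1 to 5. Sham females had 19.1, 12.8, 15.5, 12.9 and 11.1 FPKM and bleomycin females 15.2, 19.2, 20.2, 16.4 and 14.0 FPKM. Sham males were above all other libraries and the other 3 groups overlapped. Rgs5 (gene ENSRNOG00000002730, chromosome 13, 81836304 to 81885518, plus strand) differed in response by 1.23 ± 0.241 (adjusted p = 0.0182), and passed without the libraries with organ transcripts as well, with an adjusted p of 0.0282. It was 1 of 2 genes of the 15 in the fibroblast and pericyte list that passed, both higher, with a list median of 0.13, and the list had 3 higher and 1 lower without bleomycin male 4 and 1 higher without the libraries with organ transcripts. Kit, the stem cell factor receptor of mast cells and of some lung capillary cells, averaged 21.0 ± 5.94 in sham and 9.66 ± 4.13 in bleomycin males, and 17.2 ± 1.94 in sham and 22.1 ± 6.27 in bleomycin females. Kit differed in response by 1.47 ± 0.348 (adjusted p = 0.0256). It was the only passing gene of 10 in the mast cell list, whose median was 0.06, and that list had 1 passing without bleomycin male 4 and 0 without the libraries with organ transcripts.

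**Figure D4:**
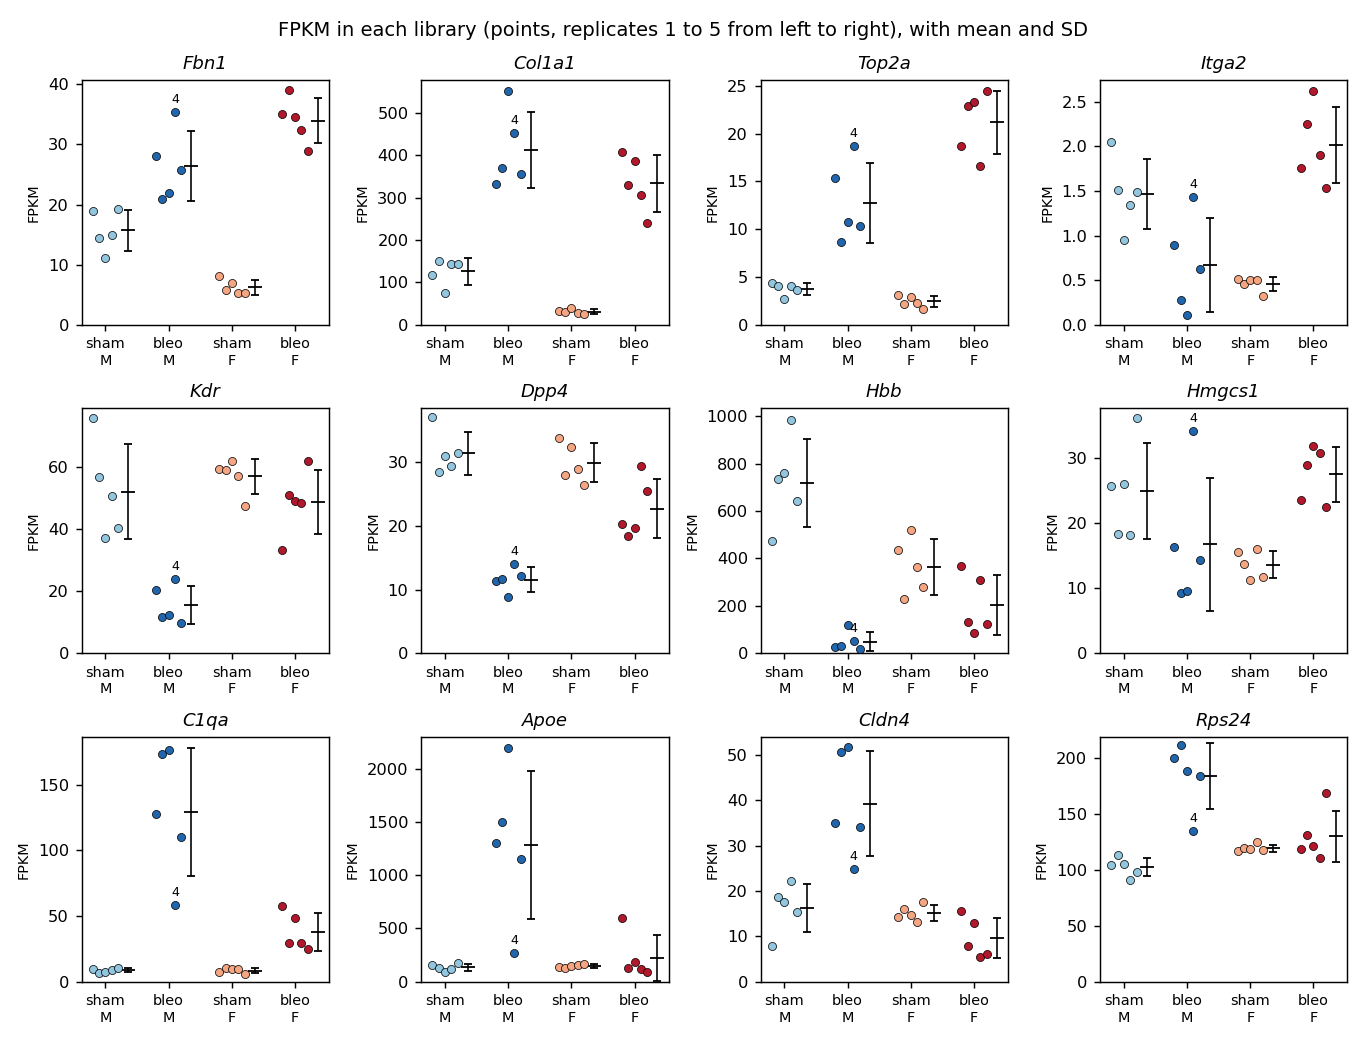
FPKM of 12 genes, 1 panel per gene, with 1 point per library in the order of replicates 1 to 5 and the mean and SD of each group (n = 5) beside them; bleomycin male 4 is numbered. For Kdr and Dpp4 the bleomycin males lie below every bleomycin female, for Fbn1 and Col1a1 the sham females lie below every sham male, and for Apoe bleomycin male 4 is at 267 FPKM while the other bleomycin males are above 1150.

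Alveolar type 1 cell genes, from the flat cells that carry gas exchange, were also lower in bleomycin males than in bleomycin females, with medians of 0.13 among sham and 0.96 among bleomycin animals. Of 16 genes 4 passed, all higher, and 15 were above 0, with median responses of −1.37 in males and −0.31 in females and a median difference of 0.83. Clic5, a chloride channel family protein of type 1 cells, stood at 335, 206, 257, 213 and 236 FPKM in sham males 1 to 5 and at 89.1, 40.8, 42.1, 123 and 65.3 FPKM in bleomycin males 1 to 5. Sham females had 328, 236, 273, 262 and 277 FPKM and bleomycin females 136, 190.1, 181, 225 and 196 FPKM. All bleomycin males were below all bleomycin females, although bleomycin male 4, at 123, and bleomycin female 1, at 136, were close. Clic5 (gene ENSRNOG00000047218, chromosome 9, 16710980 to 16813427, minus strand) differed in response by 1.21 ± 0.348 (adjusted p = 0.0477). Rtkn2, used as a type 1 marker and a symbol shared by 2 gene entries, averaged 27.3 ± 6.53 in sham and 4.81 ± 2.53 in bleomycin males, and 34.6 ± 4.00 in sham and 15.5 ± 2.37 in bleomycin females for the entry tested. Rtkn2 differed in response by 1.34 ± 0.385 (adjusted p = 0.0477). The axon guidance ligand gene Sema3e averaged 38.2 ± 6.57 in sham and 14.7 ± 9.30 in bleomycin males, and 35.7 ± 3.78 in sham and 39.7 ± 6.37 in bleomycin females. Sema3e differed in response by 1.51 ± 0.413 (adjusted p = 0.0404). The basement membrane collagen gene Col4a4 averaged 30.7 ± 6.14 in sham and 12.7 ± 8.22 in bleomycin males, and 28.3 ± 4.46 in sham and 35.6 ± 8.52 in bleomycin females. Col4a4 differed in response by 1.58 ± 0.455 (adjusted p = 0.0481). These 4 calls were near the threshold. Among the 20 fits that left out 1 library each, Clic5 passed in 3, Rtkn2 in 3, Sema3e in 5 and Col4a4 in 2, with adjusted p of at most 0.0935. Leaving out bleomycin male 4, the list had 12 genes passing, and without the libraries with organ transcripts or with the length trend removed it had 0.

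Other epithelial lists had few passing genes or none. Among 14 type 2 cell genes, 11 airway secretory genes, 14 ciliated cell genes and 16 xenobiotic metabolism genes 0 passed, with medians of 0.30, 0.26, −0.35 and 0.20. In the list of transitional epithelium and keratins, which marks cells between type 2 and type 1 identity after injury, 2 of 11 passed, both lower. Left without bleomycin male 4 this list had 1 higher and 2 lower, and without the libraries with organ transcripts 0. Cldn4, a tight junction claudin induced in injured alveoli, stood at 7.93, 18.8, 17.5, 22.1 and 15.3 FPKM in sham males 1 to 5 and at 35.1, 50.6, 51.7, 24.9 and 34.2 FPKM in bleomycin males 1 to 5. Sham females had 14.2, 15.9, 14.7, 13.2 and 17.7 FPKM and bleomycin females 15.5, 7.97, 12.99, 5.52 and 6.20 FPKM. Bleomycin males lay above all other libraries, and sham males, sham females and bleomycin females overlapped. Cldn4 (gene ENSRNOG00000001476, chromosome 12, 21751331 to 21753436, plus strand) differed in response by −1.90 ± 0.421 (adjusted p = 0.0215), rising by 1.22 ± 0.299 (adjusted p = 0.00311) in males with a female response of −0.68 ± 0.297 (adjusted p = 0.113). The stress-induced gene Ndrg1 averaged 16.4 ± 1.52 in sham and 23.5 ± 5.05 in bleomycin males, and 20.3 ± 2.00 in sham and 15.2 ± 2.94 in bleomycin females. Ndrg1 differed in response by −0.92 ± 0.2004 (adjusted p = 0.0208). Its male and female responses both passed and had opposite signs, 0.48 ± 0.142 (adjusted p = 0.0112) and −0.44 ± 0.142 (adjusted p = 0.0301), with bleomycin male 4 the lowest bleomycin male at 14.8.

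Capn8, a calpain protease known from stomach epithelium, averaged 0.1255 ± 0.0549 in sham and 1.91 ± 1.12 in bleomycin males, and 0.349 ± 0.135 in sham and 0.208 ± 0.126 in bleomycin females FPKM. Capn8 differed in response by −4.58 ± 0.812 (adjusted p = 0.0138). Bleomycin male 4, at 0.26, was the only bleomycin male inside the range of the other groups. The membrane-bound serine protease gene Prss30 averaged 1.21 ± 0.479 in sham and 12.2 ± 8.83 in bleomycin males, and 1.90 ± 1.35 in sham and 1.98 ± 1.13 in bleomycin females. Prss30 differed in response by −3.20 ± 0.744 (adjusted p = 0.0244), with bleomycin males 2 and 5 at 22.04 and 21.7 and the other 3 between 5.46 and 6.04.

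Macrophage genes had, by the median of their list, the higher response in males. Of 24 macrophage and monocyte genes 5 passed, all lower in the female response, and 22 were below 0. The median response was 1.56 in males and 0.58 in females, and the median difference −0.85. Adgre1, at 0.25, and Msr1, at 0.03, were above 0. Csf1r, Mrc1, Cx3cr1, Itgam and Mertk lay between −0.27 and −0.10 and did not pass. C1qa, a chain of the complement starter C1q, made by tissue macrophages, stood at 9.78, 6.72, 7.74, 9.25 and 10.6 FPKM in sham males 1 to 5 and at 128, 173, 176, 58.1 and 110.2 FPKM in bleomycin males 1 to 5. Sham females had 7.19, 10.3, 9.62, 9.48 and 6.10 FPKM and bleomycin females 57.8, 29.3, 48.4, 29.3 and 25.3 FPKM. Bleomycin females were above both sham groups, and bleomycin males were above every bleomycin female, although replicate 4, at 58.1, and bleomycin female 1, at 57.8, were level. C1qa (gene ENSRNOG00000012807, chromosome 5, 149133636 to 149136534, minus strand) rose by 3.83 ± 0.305 (adjusted p = 2.07e-07) in males and 2.13 ± 0.284 (adjusted p = 1.9e-05) in females, and the responses differed by −1.70 ± 0.389 (adjusted p = 0.0233).

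Apoe, the lipid carrier of macrophages, stood at 153, 131, 94.7, 124 and 176 FPKM in sham males 1 to 5 and at 1302, 1499, 2189.6, 267 and 1152 FPKM in bleomycin males 1 to 5. Sham females had 138, 126, 152, 161 and 164 FPKM and bleomycin females 599, 126, 183, 115 and 89.7 FPKM. Bleomycin males other than replicate 4 were above every other library, and bleomycin females 2 to 5 lay between 89.7 and 183, against 94.7 to 176 in the sham libraries. Apoe (gene ENSRNOG00000018454, chromosome 1, 79353916 to 79357891, minus strand) differed in response by −2.65 ± 0.682 (adjusted p = 0.0345), by −3.46 without bleomycin female 1 (adjusted p = 0.0122) and by −2.91 without bleomycin male 4 (adjusted p = 0.00368). It passed in 8 of the 20 fits that left out 1 library, with an adjusted p of at most 0.0657. The lipid-sensing receptor gene Trem2 averaged 2.10 ± 0.800 in sham and 31.8 ± 13.5 in bleomycin males, and 3.62 ± 2.15 in sham and 9.70 ± 6.21 in bleomycin females. Trem2 differed in response by −2.47 ± 0.638 (adjusted p = 0.0352). The sialic acid lectin Siglec1 averaged 1.34 ± 0.155 in sham and 5.80 ± 1.64 in bleomycin males, and 2.13 ± 0.561 in sham and 2.78 ± 1.29 in bleomycin females. Siglec1 differed in response by −1.71 ± 0.375 (adjusted p = 0.0215). Clec10a, a lectin of alternatively activated macrophages, averaged 8.02 ± 1.69 in sham and 86.7 ± 35.3 in bleomycin males, and 7.52 ± 1.79 in sham and 31.5 ± 6.66 in bleomycin females. Clec10a differed in response by −1.38 ± 0.359 (adjusted p = 0.0356), and was the only passing gene of 14 in that list, whose median was −0.89. For that list 1 gene was higher and 2 were lower without bleomycin male 4, and 0 passed without the libraries with organ transcripts. Fitted without bleomycin male 4, the macrophage list had 8 genes passing, without the libraries with organ transcripts 0 at a median of −1.05, and with the length trend removed 4 at a median of −0.72.

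Cytokine and chemokine genes also had, by the median of their list, the higher response in males. Of 29 cytokines and chemokines 4 passed, all lower in the female response, with median responses of 1.197 in males and 0.41 in females and a median difference of −0.52. The list's median female against male difference was 0.32 among sham and −0.21 among bleomycin animals, so the higher sham level of females entered as well. In all 22 were below 0 and 7 above, among the latter Il6 at 2.10 and Il1a at 1.68, neither of which passed. Ccl2 was at −0.02. Cxcl10, an interferon-induced attractant of T cells, stood at 1.73, 1.53, 0.355, 0.970 and 0.637 FPKM in sham males 1 to 5 and at 6.63, 16.5, 10.0, 5.55 and 8.59 FPKM in bleomycin males 1 to 5. Sham females had 1.63, 1.29, 1.51, 1.00 and 1.26 FPKM and bleomycin females 4.22, 1.65, 3.25, 3.45 and 2.28 FPKM. Every bleomycin male was above every bleomycin female and every sham library. Cxcl10 (gene ENSRNOG00000022256, chromosome 14, 15704758 to 15706975, plus strand) rose by 3.15 ± 0.381 (adjusted p = 6.49e-06) in males and 1.13 ± 0.357 (adjusted p = 0.0289) in females, and the responses differed by −2.02 ± 0.504 (adjusted p = 0.0304). The neutrophil attractant Cxcl6 averaged 0.718 ± 0.485 in sham and 7.61 ± 4.54 in bleomycin males, and 2.40 ± 1.41 in sham and 1.56 ± 1.71 in bleomycin females. Cxcl6 differed in response by −3.98 ± 0.985 (adjusted p = 0.0296). The B cell attractant Cxcl13 averaged 0.782 ± 0.431 in sham and 11.8 ± 9.21 in bleomycin males, and 1.15 ± 0.576 in sham and 2.40 ± 1.38 in bleomycin females. Cxcl13 differed in response by −2.80 ± 0.770 (adjusted p = 0.0413), with bleomycin male 4 at 2.07 and bleomycin male 2 at 26.6. The macrophage product Ccl4 averaged 1.40 ± 0.415 in sham and 3.84 ± 1.90 in bleomycin males, and 3.29 ± 1.39 in sham and 2.90 ± 0.772 in bleomycin females. Ccl4 differed in response by −1.60 ± 0.451 (adjusted p = 0.0449). Among 28 interferon-stimulated genes Cxcl10 was the only one that passed, with a list median of −0.31. The interferon list had 1 higher and 3 lower without bleomycin male 4 and 0 without the libraries with organ transcripts. After removal of bleomycin male 4 the cytokine list had 3 genes higher and 4 lower, without the libraries with organ transcripts 0, and with the length trend removed 0 higher and 1 lower.

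RT1-Db1, a beta chain of rat MHC class II, which presents peptides to helper T cells, stood at 10.97, 11.5, 11.1, 12.4 and 10.7 FPKM in sham males 1 to 5 and at 44.0, 18.6, 36.2, 17.7 and 24.6 FPKM in bleomycin males 1 to 5. Sham females had 12.4, 14.9, 13.01, 16.7 and 11.9 FPKM and bleomycin females 17.5, 8.27, 11.3, 12.01 and 8.59 FPKM. Bleomycin males were above every library of the other groups, and bleomycin female 1, at 17.5, was level with the lowest of them. RT1-Db1 (gene ENSRNOG00000033215, chromosome 20, 4548666 to 4558258, minus strand), a member of a family of similar genes whose reads may be shared, differed in response by −1.57 ± 0.340 (adjusted p = 0.0205). It was the only passing gene of 11 in the MHC class II list, in which 10 were below 0 and the median was −1.05, from median responses of 0.97 in males and 0.16 in females. Without bleomycin male 4 that list had 9 genes passing, all lower, without the libraries with organ transcripts 0, and with the length trend removed 1. Among 25 T and NK cell genes 2 passed, both lower, with a median of −0.77. In all 22 were below 0 and 3 above. Those above were the cytotoxic cell genes Prf1 at 0.64, Gzmb at 0.47 and Gzma at 0.46, none of which passed. The T and NK cell list had 9 passing without bleomycin male 4, 0 without the libraries with organ transcripts, at a median of −0.36, and 0 with the length trend removed. The T cell receptor complex gene Cd3d averaged 1.42 ± 0.289 in sham and 2.13 ± 0.757 in bleomycin males, and 2.16 ± 0.625 in sham and 1.10 ± 0.314 in bleomycin females. Cd3d differed in response by −1.53 ± 0.389 (adjusted p = 0.0325). The cytotoxic T cell gene Cd8b averaged 1.05 ± 0.321 in sham and 3.17 ± 1.19 in bleomycin males, and 1.27 ± 0.479 in sham and 1.08 ± 0.515 in bleomycin females. Cd8b differed in response by −1.80 ± 0.509 (adjusted p = 0.046), with bleomycin male 4, at 1.13, below the other bleomycin males. In the complement list 3 of 14 passed, C1qa, C1qb and the fat cell gene Cfd, all lower, with a median of −0.51. C1qa and C1qb are also among the passing genes of the macrophage list. The complement count became 6 without bleomycin male 4, 0 without the libraries with organ transcripts and 2 with the length trend removed. Lists of B cells and neutrophils, with 14 and 9 genes tested, had 0 passing.

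**Figure D5:**
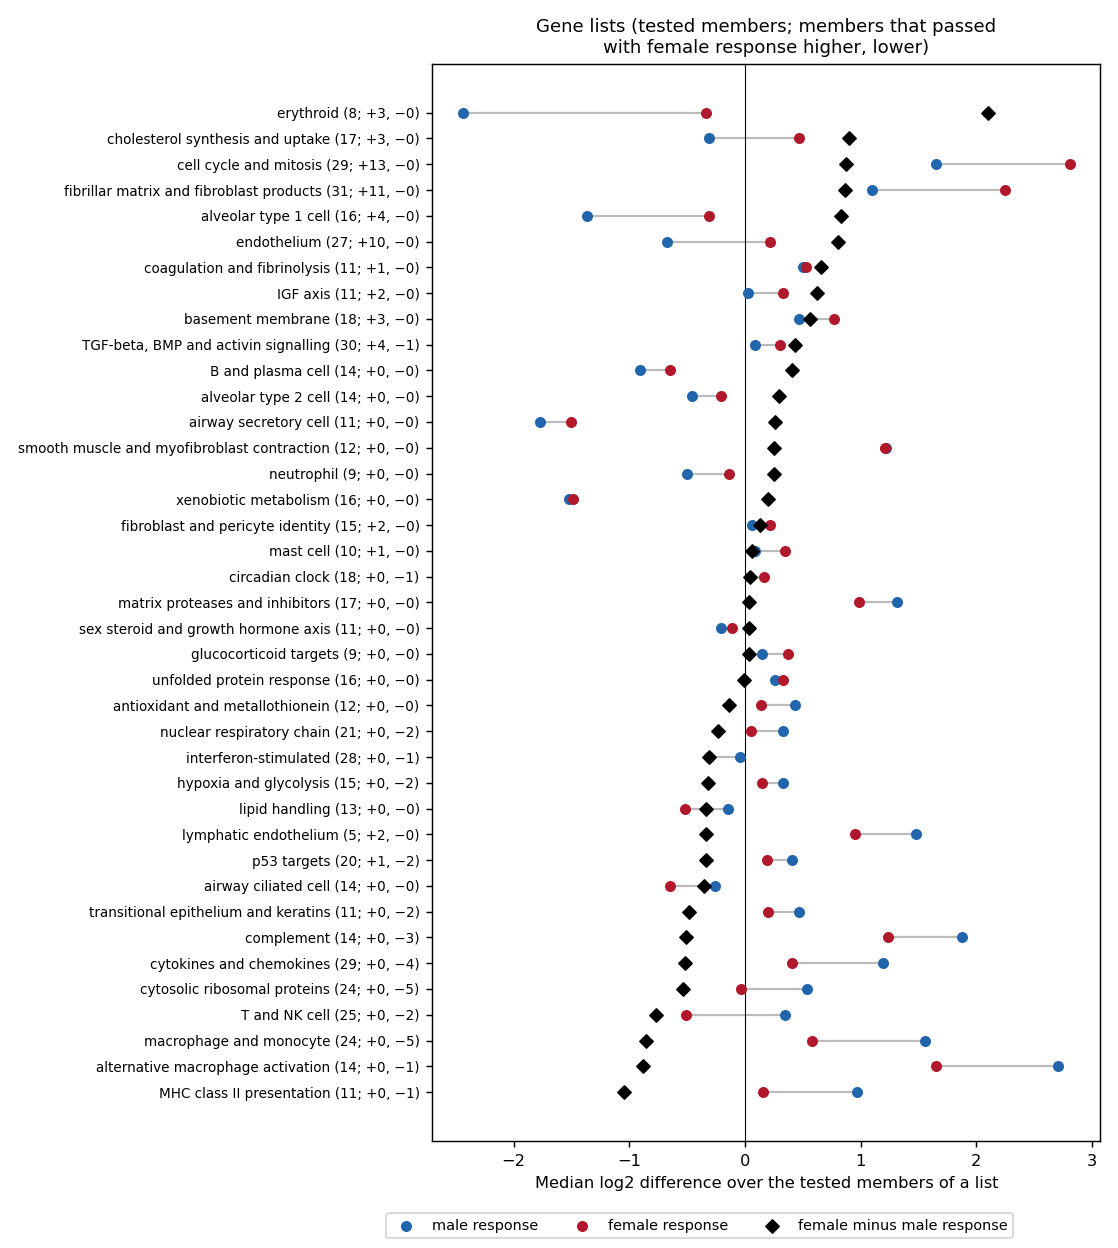
For each gene list with at least 5 tested members, other than those of neighbouring organs, the blue and red points give the median log2 response of males and females and the black diamond the median of the gene by gene difference, female minus male. The numbers after a name are the genes tested and those that passed with the female response higher and lower; of the lists drawn, erythroid, cholesterol, cell cycle and matrix genes have the highest medians and MHC class II and the macrophage lists the lowest.

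Genes of cholesterol synthesis and uptake were above 0 in all 17 of 17 tested, with median responses of −0.31 in males and 0.47 in females and a median difference of 0.90, and 3 of them passed. The list's median female against male difference was −0.42 among sham and 0.41 among bleomycin animals. Hmgcs1, the synthase at the start of the mevalonate pathway, stood at 25.6, 18.3, 26.04, 18.2 and 36.2 FPKM in sham males 1 to 5 and at 16.3, 9.25, 9.53, 34.2 and 14.4 FPKM in bleomycin males 1 to 5. Sham females had 15.6, 13.7, 11.2, 16.0 and 11.8 FPKM and bleomycin females 23.6, 29.0, 31.9, 30.7 and 22.6 FPKM. Bleomycin male 4, at 34.2, was the highest of the bleomycin animals while the other bleomycin males were at 16.3 or less. Hmgcs1 (gene ENSRNOG00000016552, chromosome 2, 51649497 to 51667097, plus strand) differed in response by 1.58 ± 0.418 (adjusted p = 0.0366) with all libraries and by 2.06 without bleomycin male 4 (adjusted p = 0.00048). The lanosterol synthase gene Lss averaged 5.70 ± 1.37 in sham and 4.76 ± 1.55 in bleomycin males, and 3.79 ± 0.565 in sham and 6.88 ± 1.04 in bleomycin females. Lss differed in response by 1.12 ± 0.309 (adjusted p = 0.0417). Hmgcs1 and Lss each passed in 6 of the 20 fits that left out 1 library. With bleomycin male 4 left out, the list had 14 genes passing, without the libraries with organ transcripts 0 at a median of 0.33, and with the length trend removed 1. In the hypoxia and glycolysis list 2 of 15 passed, both lower, among them the mitophagy receptor gene Bnip3, which averaged 8.78 ± 1.15 in sham and 11.4 ± 2.96 in bleomycin males, and 9.82 ± 0.694 in sham and 7.39 ± 0.729 in bleomycin females. Bnip3 differed in response by −0.78 ± 0.166 (adjusted p = 0.0199). The hypoxia count was 3 without bleomycin male 4 and 0 without the libraries with organ transcripts.

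Genes for cytosolic ribosomal proteins had a higher response in males, and the difference was smaller for the respiratory chain. All 24 tested entries for cytosolic ribosomal proteins were below 0, 5 of them passed, and the median was −0.53, from median responses of 0.54 in males and −0.03 in females. It was 16 that passed without bleomycin male 4 and 0 without the libraries with organ transcripts, at medians of −0.58 and −0.74. Rps24, a protein of the small ribosomal subunit, stood at 105, 113, 106, 91.2 and 98.3 FPKM in sham males 1 to 5 and at 199.9, 212, 189, 135 and 184 FPKM in bleomycin males 1 to 5. Sham females had 117, 119.9, 119, 125 and 118 FPKM and bleomycin females 119, 132, 122, 111 and 169 FPKM. Bleomycin males 1, 2, 3 and 5 were above all other libraries, while bleomycin male 4, at 135, lay between bleomycin females 2 and 5. Rps24 (gene ENSRNOG00000010189, chromosome 16, 89604 to 94279, plus strand) differed in response by −0.72 ± 0.149 (adjusted p = 0.0195). Rpl22, of the large subunit and with a symbol shared by 2 gene entries, averaged 12.9 ± 0.999 in sham and 21.3 ± 2.74 in bleomycin males, and 15.0 ± 1.10 in sham and 14.9 ± 2.34 in bleomycin females for the entry with the smaller p. Rpl22 differed in response by −0.73 ± 0.138 (adjusted p = 0.0165). In the nuclear respiratory chain 2 of 21 passed, both lower, with a median of −0.23, against 3 without bleomycin male 4 and 0 without the libraries with organ transcripts. The complex I gene Ndufa2 averaged 24.9 ± 3.02 in sham and 40.6 ± 6.75 in bleomycin males, and 30.4 ± 3.11 in sham and 26.6 ± 2.66 in bleomycin females. Ndufa2 differed in response by −0.90 ± 0.185 (adjusted p = 0.0193). The cytochrome oxidase gene Cox6c averaged 88.0 ± 7.91 in sham and 148 ± 16.0 in bleomycin males, and 98.1 ± 9.66 in sham and 111 ± 12.3 in bleomycin females. Cox6c differed in response by −0.57 ± 0.134 (adjusted p = 0.0244), which became −0.15 (adjusted p = 0.421) with the length trend removed.

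The interaction moved with transcript length across all genes. The median transcript length of the ribosomal and cytokine lists lay in the shortest of 5 equal bins of genes. That of the respiratory, macrophage, alternative macrophage activation, MHC class II and T cell lists lay in the next. The matrix and basement membrane lists lay in the longest bin, and the TGF-beta and endothelial lists in the bin before it. In the middle bin were the cell division, alveolar type 1, cholesterol, erythroid and complement lists. From the shortest to the longest bin, of 3064 genes each, the median difference was −0.27, −0.12, −0.01, 0.07 and 0.18. The genes that passed with the female response higher numbered 22, 48, 91, 151 and 237 over these bins, and those that passed lower 118, 83, 54, 36 and 25. With the trend removed within each library the ribosomal list had a median of −0.35 and 3 genes passing, and the respiratory list −0.05 and 1. Of the 865 genes, 475 were among the 553 that passed with the trend removed.

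Globin genes fell in males and stood higher in bleomycin females than in bleomycin males. Hbb, the beta globin of red cells, stood at 474, 736, 759, 985 and 644 FPKM in sham males 1 to 5 and at 27.4, 32.1, 118, 51.7 and 17.8 FPKM in bleomycin males 1 to 5. Sham females had 435, 227, 518, 366 and 279 FPKM and bleomycin females 366, 134, 84.3, 309 and 123 FPKM. Bleomycin males were the lowest, with replicate 3, at 118, reaching the bleomycin female range of 84.3 to 366, and sham females overlapped with sham males only through replicate 3, at 518. Hbb (gene ENSRNOG00000047098, chromosome 1, 158120200 to 158251837, minus strand) had a male response of −3.85 ± 0.532 (adjusted p = 2.41e-05) and a female response of −0.86 ± 0.478 (adjusted p = 0.215), and the responses differed by 2.99 ± 0.686 (adjusted p = 0.0235). The alpha globin gene Hba-a1, which has near-identical copies that may share reads, averaged 1085 ± 291 in sham and 102 ± 85.3 in bleomycin males, and 629 ± 199.98 in sham and 366 ± 205 in bleomycin females. Hba-a1 differed in response by 2.60 ± 0.676 (adjusted p = 0.0356). All 8 erythroid genes tested were above 0, 3 passed and the median was 2.10, from median responses of −2.44 in males and −0.34 in females. Add2, the beta adducin of the red cell membrane skeleton, averaged 1.45 ± 0.292 in sham and 0.205 ± 0.165 in bleomycin males, and 1.02 ± 0.184 in sham and 0.957 ± 0.109 in bleomycin females. Add2 differed in response by 2.66 ± 0.543 (adjusted p = 0.0193). Lgals5, a galectin of rat reticulocytes, averaged 5.03 ± 2.52 in sham and 0.331 ± 0.332 in bleomycin males, and 3.19 ± 1.53 in sham and 2.06 ± 1.77 in bleomycin females. Lgals5 differed in response by 3.25 ± 0.908 (adjusted p = 0.0436), passing in 4 of the 20 fits that left out 1 library. The passing genes of the erythroid list are all globins, and the list's count was 4 without bleomycin male 4, 0 without the libraries with organ transcripts and 3 with the length trend removed.

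Fat-associated genes were highest in bleomycin male 5. Cfd, the complement factor D of fat cells, also called adipsin, stood at 4.18, 5.75, 5.48, 6.501 and 8.62 FPKM in sham males 1 to 5 and at 28.7, 40.9, 64.1, 8.83 and 145 FPKM in bleomycin males 1 to 5. Sham females had 7.39, 12.8, 4.89, 7.10 and 8.399 FPKM and bleomycin females 16.7, 8.25, 12.01, 7.19 and 4.43 FPKM. Bleomycin males ran from 8.83 in replicate 4 to 145 in replicate 5, and replicate 4 overlapped with sham and with bleomycin females. The responses of Cfd differed by −2.93 ± 0.712 (adjusted p = 0.0277), and by −2.29 (adjusted p = 0.0405) without bleomycin male 5. Adig, a small adipocyte protein gene, averaged 0.647 ± 0.480 in sham and 3.11 ± 3.75 in bleomycin males, and 1.49 ± 1.07 in sham and 0.675 ± 0.492 in bleomycin females, with 9.81 in bleomycin male 5, and differed by −3.32 ± 0.966 (adjusted p = 0.049), or −2.28 (adjusted p = 0.0892) without it. The fatty acid carrier Fabp3 averaged 1.99 ± 0.434 in sham and 3.96 ± 4.94 in bleomycin males, and 3.45 ± 1.16 in sham and 1.05 ± 0.413 in bleomycin females, with 12.6 in bleomycin male 5, and differed by −2.66 ± 0.766 (adjusted p = 0.0483), or −1.62 (adjusted p = 0.0731) without it. Summed FPKM of 5 fat cell genes, Adipoq among them, was 1.54 to 162.8 in bleomycin males with a median of 2.52, against 1.57 to 12.5 in sham males, 1.77 to 21.2 in sham females and 0.88 to 2.22 in bleomycin females. None of the 4 tested fat genes passed, at a median of −4.51.

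Single genes outside the lists had large differences. Itga2, a collagen-binding integrin subunit, stood at 2.05, 1.51, 0.948, 1.34 and 1.49 FPKM in sham males 1 to 5 and at 0.896, 0.283, 0.107, 1.44 and 0.623 FPKM in bleomycin males 1 to 5. Sham females had 0.512, 0.454, 0.5004, 0.503 and 0.319 FPKM and bleomycin females 1.76, 2.25, 2.62, 1.91 and 1.54 FPKM. Sham females were below all sham males, and bleomycin females were above all bleomycin males, so both sex differences entered. Itga2 (gene ENSRNOG00000058111, chromosome 2, 46523948 to 46621481, minus strand) had a male response of −1.15 ± 0.427 (adjusted p = 0.0376) and a female response of 2.11 ± 0.440 (adjusted p = 0.00173), which differed by 3.26 ± 0.612 (adjusted p = 0.0163). Dpp4, the cell surface peptidase also known as CD26, stood at 37.0, 28.4, 30.9, 29.3 and 31.4 FPKM in sham males 1 to 5 and at 11.3, 11.6, 8.77, 14.1 and 12.2 FPKM in bleomycin males 1 to 5. Sham females had 33.8, 27.99, 32.4, 29.0 and 26.4 FPKM and bleomycin females 20.3, 18.4, 19.7, 29.4 and 25.5 FPKM. Bleomycin males lay below all other libraries without overlap, and the sham groups overlapped. Dpp4 (gene ENSRNOG00000030763, chromosome 3, 46962243 to 47043901, minus strand) differed in response by 1.05 ± 0.180 (adjusted p = 0.0138), with a male response of −1.48 ± 0.130 (adjusted p = 4.88e-07), a female response of −0.43 ± 0.127 (adjusted p = 0.0209) and a sham difference of −0.06 ± 0.127 (adjusted p = 0.918).

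The gap junction gene Gja3, a connexin known from the eye lens, averaged 0.246 ± 0.153 in sham and 0.936 ± 0.565 in bleomycin males, and 0.0580 ± 0.0558 in sham and 3.48 ± 1.25 in bleomycin females FPKM. Gja3 differed in response by 3.94 ± 0.803 (adjusted p = 0.0193). Sirpb3, a signal regulatory protein gene, averaged 4.33 ± 1.97 in sham and 0.230 ± 0.178 in bleomycin males, and 2.46 ± 0.423 in sham and 1.22 ± 0.454 in bleomycin females. Sirpb3 differed in response by 3.21 ± 0.590 (adjusted p = 0.0147), with every bleomycin male below every bleomycin female. The protocadherin gene Pcdh7, with a symbol shared by 2 gene entries, averaged 0.979 ± 0.204 in sham and 0.745 ± 0.212 in bleomycin males, and 0.512 ± 0.137 in sham and 1.28 ± 0.253 in bleomycin females. Pcdh7 differed in response by 1.72 ± 0.285 (adjusted p = 0.0128). It passed without the libraries with organ transcripts too, with an adjusted p of 0.0282. Clec4g, a C-type lectin of sinusoidal endothelium in liver and lymph node, averaged 5.35 ± 2.31 in sham and 1.17 ± 0.652 in bleomycin males, and 2.09 ± 0.667 in sham and 3.20 ± 1.94 in bleomycin females. Clec4g differed in response by 2.77 ± 0.592 (adjusted p = 0.0199). The RING finger gene Rnf24 averaged 2.13 ± 0.413 in sham and 0.561 ± 0.406 in bleomycin males, and 1.12 ± 0.406 in sham and 1.65 ± 0.478 in bleomycin females. Rnf24 differed in response by 2.48 ± 0.605 (adjusted p = 0.0279). The sulfotransferase gene Sult1c3 averaged 2.19 ± 1.30 in sham and 4.49 ± 3.00 in bleomycin males, and 0.273 ± 0.129 in sham and 7.16 ± 6.01 in bleomycin females. Sult1c3 differed in response by 3.67 ± 0.872 (adjusted p = 0.0258), with bleomycin female 2, at 17.6, far above the other libraries.

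Creb3l2, a membrane-bound transcription factor of secretory cells, stood at 30.9, 28.5, 26.1, 24.7 and 28.3 FPKM in sham males 1 to 5 and at 20.9, 13.2, 14.9, 22.9 and 17.4 FPKM in bleomycin males 1 to 5. Sham females had 26.7, 21.8, 26.2, 25.3 and 25.4 FPKM and bleomycin females 26.8, 36.8, 34.3, 35.9 and 39.8 FPKM. Bleomycin females 2 to 5 were above all other libraries, bleomycin males were the lowest with an overlap at replicate 4, and the sham groups overlapped. Creb3l2 fell in males, by −0.66 ± 0.134 (adjusted p = 0.000777), and rose in females, by 0.44 ± 0.134 (adjusted p = 0.025), and the responses differed by 1.09 ± 0.190 (adjusted p = 0.0138). Apobec1, the cytidine deaminase that edits apolipoprotein B messenger RNA, stood at 1.24, 1.54, 0.628, 1.95 and 1.10 FPKM in sham males 1 to 5 and at 16.0, 20.4, 12.1, 3.42 and 12.04 FPKM in bleomycin males 1 to 5. Sham females had 1.74, 1.26, 1.72, 1.70 and 1.12 FPKM and bleomycin females 3.76, 2.97, 2.80, 2.12 and 2.60 FPKM. Bleomycin males 1, 2, 3 and 5 were at 12.04 or more, and replicate 4, at 3.42, lay within the bleomycin female range. Apobec1 differed by −2.36 ± 0.468 (adjusted p = 0.0186). Rgs10, a regulator of G protein signalling abundant in macrophages, averaged 8.78 ± 0.322 in sham and 25.7 ± 7.65 in bleomycin males, and 9.58 ± 1.11 in sham and 12.4 ± 1.36 in bleomycin females. Rgs10 differed in response by −1.16 ± 0.230 (adjusted p = 0.0186). Batf, an AP-1 family factor of lymphocytes and dendritic cells, averaged 1.37 ± 0.230 in sham and 4.67 ± 1.57 in bleomycin males, and 2.15 ± 0.366 in sham and 2.43 ± 0.544 in bleomycin females. Batf differed in response by −1.56 ± 0.321 (adjusted p = 0.0194). The glycosyltransferase gene B4galnt4 averaged 0.437 ± 0.0612 in sham and 1.51 ± 0.417 in bleomycin males, and 0.584 ± 0.149 in sham and 0.591 ± 0.145 in bleomycin females. B4galnt4 differed in response by −1.75 ± 0.337 (adjusted p = 0.0179). The matrix proteoglycan gene Podnl1 averaged 0.209 ± 0.0499 in sham and 1.18 ± 0.698 in bleomycin males, and 0.340 ± 0.101 in sham and 0.266 ± 0.108 in bleomycin females. Podnl1 differed in response by −2.79 ± 0.573 (adjusted p = 0.0194), and the neuropeptide precursor gene Vgf averaged 0.0815 ± 0.0685 in sham and 1.14 ± 0.453 in bleomycin males, and 0.142 ± 0.0283 in sham and 0.258 ± 0.198 in bleomycin females. Vgf differed in response by −2.90 ± 0.698 (adjusted p = 0.0268). In these 5 genes bleomycin male 4 was the lowest bleomycin male, at 13.8, 3.04, 0.781, 0.252 and 0.548 FPKM.

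In the IGF list 2 of 11 passed, both higher, against 3 without bleomycin male 4, 0 without the libraries with organ transcripts and 0 with the length trend removed. H19, a long non-coding RNA of the imprinted Igf2 locus, stood at 6.25, 1.18, 29.1, 3.21 and 0.0716 FPKM in sham males 1 to 5 and at 5.04, 4.65, 6.32, 4.38 and 4.72 FPKM in bleomycin males 1 to 5. Sham females had 0.122, 0.0732, 0.140, 0.0681 and 0.1248 FPKM and bleomycin females 2.91, 2.09, 2.06, 0.334 and 0.347 FPKM. Sham males ran from 0.0716 to 29.1, the widest spread of the 4 groups, while all 5 sham females were at 0.14 or less. Sham male 3, the library at 29.1, also had 172 FPKM of the skeletal muscle gene Acta1. Whether they are linked was not tested. H19 differed by 4.50 ± 1.30 (adjusted p = 0.0488) in edgeR and had an adjusted p of 0.433 in limma on log2(FPKM + 0.1). The growth factor receptor gene Igf1r averaged 1.95 ± 0.155 in sham and 1.33 ± 0.310 in bleomycin males, and 1.88 ± 0.160 in sham and 2.21 ± 0.452 in bleomycin females. Igf1r differed in response by 0.79 ± 0.228 (adjusted p = 0.0483), passing in 2 of the 20 fits that left out 1 library.

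The lists of lipid handling, antioxidant and metallothionein, glucocorticoid target, sex steroid and growth hormone axis and unfolded protein response genes had 0 passing among 13, 12, 9, 11 and 16 tested, with medians of −0.34, −0.14, 0.03, 0.04 and −0.01. The estrogen receptor genes Esr1 and Esr2 were below the filter, with at most 0.229 and 0.227 FPKM in any library, and were not tested. In the coagulation list 1 of 11 passed higher, which was Vwf, and in the circadian clock list 1 of 18 passed lower. The 2 lists had 4 higher, and 1 higher and 1 lower, without bleomycin male 4, and 0 each without the libraries with organ transcripts. Lists of liver, skeletal muscle, heart, mesothelium and thymus genes had 0 passing among 7, 4, 6, 4 and 1 tested. Over the 19 lists in which edgeR passed no gene, 32 of 192 genes had an unadjusted p under 0.05, DESeq2 passed 15 of the 192 and limma-voom with sample weights 25. Of all 15320 genes, 4042 had an unadjusted p under 0.05, DESeq2 passed 2079 and limma-voom 3316, larger shares than in these lists. In edgeR 24 of the 192 passed without bleomycin male 4, all 4 tested fat genes among them, and 1 passed without the libraries with organ transcripts. Of all 15320 genes, 2871 and 26 passed in these fits. By gene type, 831 of 14219 protein-coding genes, 26 of 694 long non-coding RNAs, 7 of 119 pseudogenes and 0 of 169 small nucleolar RNAs passed.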

How the data were processed

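Messenger RNA of 20 rat lungs was sequenced, 1 library per animal and 5 per group. Groups were taken from the sample titles. Per the labels' protocols, poly-A RNA was prepared with a stranded kit, reads of 150 bases were trimmed with Cutadapt 1.10, aligned with HISAT2 2.0 and passed to StringTie 1.3.4 for quantification. Although the organism field says mouse, the stock, the design text and the gene identifiers are those of rat. The labels name Ensembl 112 and Rnor 6.0 together, although that release is not built on that assembly. Coordinates are therefore those of the deposited table, and their build is uncertain. The deposited table holds 2 units, counts and FPKM, per the file headers. Counts were made by the authors in a way that the labels do not give, and the use of strand is not given in the sources used here. FPKM values were made by the authors with StringTie, per the labels.

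The deposited counts were tested with edgeR 4.0.16 under R 4.3.3. Its quasi-likelihood test was fitted robustly after TMM scaling, with 1 model over 20 libraries, a mean for each group and a prior count of 0.125. The model was fitted to all 15875 genes past the filter, and p-values, which are two-sided, were adjusted over all of them by the Benjamini-Hochberg method at a threshold of 0.05. The 15320 genes not on X, Y or the mitochondrial genome are reported. The value after ± is the standard error of a log2 difference or the standard deviation of FPKM, with n = 5 per group. An adjusted p with no tool beside it is edgeR's. The procedure was tested on simulated data.

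Members and the 46 gene lists were chosen with earlier results of these data known. Of a list's genes only those past the filter were tested. Some genes are in more than 1 list, such as C1qa, Col4a4 and Eng, and count in each. Genes were named if they passed at 2-fold or more and were among the 12 largest differences or the 8 smallest p-values in either direction, leaving out provisional symbols and genes whose highest group mean was below 1 FPKM, if among the 4 members of a list with the smallest p, or as fixed checks; 77 of 204 genes that this rule selects are described with values. Alternatives were no filter, an FPKM of at least 2, library totals, DESeq2 1.42.0 size factors, upper quartile factors, no robust estimation, DESeq2, limma 3.58.1 with voom and sample weights, limma on log2(FPKM + 0.1) and log2(FPKM + 1), counts divided by 4, a replicate block, a mitochondrial covariate, libraries left out, and, added after the data were seen, removal of the trend with transcript length. Symbols shared by more than 1 gene entry and near-identical copies, such as the globin and RT1 genes, are uncertain.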

Additional observations from a re-analysis of the deposited data

Results flagged for a closer look

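The interaction is itself the test of a difference between the sexes, and 76 of the 77 genes described above passed it at an adjusted p under 0.05 in edgeR. That share follows from the way the genes were chosen, mostly for passing or for a small p. The values below are the female minus the male log2 response. Among matrix, basement membrane and growth factor genes it was 1.70 for Fbn1, 1.47 for Loxl2, 1.72 for Col1a1, 1.07 for Fn1, 1.27 for Vcan, 1.93 for Col15a1, 1.23 for Nid1, 2.01 for Cemip, 1.57 for Ltbp2, 1.40 for Bmpr2, 1.12 for Bmp6 and 1.30 for Eng. In cell division and p53 target genes it was 1.35 for Top2a, 1.69 for Kif11, 1.56 for Nusap1, 0.87 for Mcm2, −0.85 for Bax, −0.73 for Aen and 1.69 for Tnfrsf10b. For genes of vessels, pericytes and alveolar type 1 cells it was 1.48 for Kdr, 1.35 for Cdh5, 1.21 for Vwf, 0.88 for Flt4, 1.23 for Rgs5, 1.47 for Kit, 1.51 for Sema3e, 1.21 for Clic5, 1.34 for Rtkn2 and 1.58 for Col4a4. Over macrophage, chemokine and lymphocyte genes it was −1.70 for C1qa, −2.65 for Apoe, −2.47 for Trem2, −1.71 for Siglec1, −1.38 for Clec10a, −3.98 for Cxcl6, −2.02 for Cxcl10, −2.80 for Cxcl13, −1.60 for Ccl4, −1.57 for RT1-Db1, −1.53 for Cd3d and −1.80 for Cd8b. Across epithelial, ribosomal, respiratory, sterol and hypoxia genes it was −1.90 for Cldn4, −4.58 for Capn8, −0.92 for Ndrg1, −3.20 for Prss30, −0.72 for Rps24, −0.73 for Rpl22, −0.90 for Ndufa2, −0.57 for Cox6c, 1.58 for Hmgcs1, 1.12 for Lss and −0.78 for Bnip3. Within red cell and fat-associated genes it was 2.99 for Hbb, 2.60 for Hba-a1, 2.66 for Add2, 3.25 for Lgals5, −2.93 for Cfd, −3.32 for Adig and −2.66 for Fabp3. Of the remaining genes it was 3.26 for Itga2, 3.94 for Gja3, 3.21 for Sirpb3, 1.05 for Dpp4, 1.72 for Pcdh7, 4.50 for H19, 0.79 for Igf1r, 1.09 for Creb3l2, −1.16 for Rgs10, −2.36 for Apobec1, −1.56 for Batf, −1.75 for B4galnt4, −2.79 for Podnl1, −2.90 for Vgf, 2.77 for Clec4g, 2.48 for Rnf24 and 3.67 for Sult1c3.

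In 25 of 308 combinations of a described gene and a group of 5, the highest or lowest library stood apart from the other 4, its gap to the nearest being more than 0.71 of the group's range (Dixon's 95% value). Chance marks about 1 in 20 such groups. Sham male 3 stood at 0.343 FPKM for Cemip, 29.1 FPKM for H19 and 0.1995 FPKM for Vgf. Bleomycin female 1 stood at 188 FPKM for Eng, 28.01 FPKM for Bmp6, 599 FPKM for Apoe, 0.455 FPKM for Podnl1, 0.612 FPKM for Vgf and 5.12 FPKM for Lgals5. Sham female 2 stood at 5.74 FPKM for Ccl4 and 21.8 FPKM for Creb3l2. Bleomycin male 4 stood at 1.13 FPKM for Cd8b, 14.8 FPKM for Ndrg1, 34.2 FPKM for Hmgcs1 and 0.781 FPKM for B4galnt4. Bleomycin female 5 stood at 18.95 FPKM for Rpl22, 1.73 FPKM for Pcdh7 and 8.65 FPKM for Bnip3. Sham female 1 stood at 0.157 FPKM for Gja3 and 0.755 FPKM for Pcdh7. Sham male 4 stood at 1.47 FPKM for Adig. Bleomycin male 5 stood at 9.81 FPKM for Adig and 12.6 FPKM for Fabp3. Bleomycin female 3 stood at 6.63 FPKM for Clec4g. Bleomycin female 2 stood at 17.6 FPKM for Sult1c3. Bleomycin female 1 accounts for 6 of the 25, more than any other library, and bleomycin male 4 for 4.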

How the results depend on the processing

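The 865 genes, 549 higher and 316 lower in the female response, became 495, 346 and 149 with no filter on low values. DESeq2 gave 2079, 1296 and 783 (718 at 2-fold or more against 398), and limma-voom with sample weights gave 3316, 1993 and 1323 (1112 at 2-fold or more). With the mitochondrial percent as a covariate the counts were 0, 0, 0 and 0, with 2909 genes at an unadjusted p under 0.05 in edgeR. The direction of all 865 genes remained in that fit, which reuses the libraries by which they were chosen. When the 5 libraries with organ transcripts were left out they were 26, 19, 7 and 20, a fit with fewer samples. Removing the length trend, an alternative chosen after seeing the data, gave 553, 354 and 199. Without 1 library the counts ran from 303 to 2871 in all, 202 to 1760 higher, 101 to 1111 lower and 166 to 1094 at 2-fold or more, the highest each time without bleomycin male 4. The other settings (a stricter filter, 3 other scalings, no robust estimation, 2 limma fits on FPKM and counts divided by 4) stayed within 1.5 times the count. Apart from the number of genes or samples entered, the cause of a changed count was not tested.

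With the replicate number as a replicate block, 991 genes passed, 666 higher and 325 lower. Deviations of same-numbered libraries correlated at −0.12 to 0.39 (median 0.05, over 0.1 in 10 of 30 pairs), against a median of −0.02 and 16 of 120 over 0.1 for different numbers, and 10 of 20 libraries correlated best with their own number. Not every same-numbered pair was over 0.1 and no label ties the numbers to shared animals or days, so they were not taken as pairs. Of 2684 checks of a described gene, 2165 stayed on their side of the threshold and 519 no longer passed. No gene that passed turned its direction, although these fits reuse libraries by which the genes were chosen. Blmh, which did not pass, went from 0.13 to −0.19 with the mitochondrial covariate and −0.09 without the organ transcript libraries. Of 1575 checks of a list median, 49 moved by more than the spread between replicates. Depth ran from 68.6 to 87.5 M counts, and values of genes below 1 FPKM rest on the fewest counts, such as 94 over the 5 sham males for Vgf.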
